A study of Eurytemora affinis with 18 samples.

Results

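The 200 genes described here are those with the strongest excess of reads in female over male *Eurytemora affinis*, an estuarine copepod, among 23728 genes counted. They were chosen from measured values. In the libraries of copepods exposed to a nominal 50 µg/L of tebufenozide (TEB), the mean level of each gene in 3 female and in 3 male libraries was taken in CPM (the count of the gene scaled to a library sum of 1000000). Genes with a female mean of at least 20 CPM were ranked by log2 of the female mean plus 1 over the male mean plus 1. Of 7340 genes that could be ranked, after 10 genes had been set aside by name, the first 200 are the members. The ranking value ran from 11.34 for LOC111697165 to 4.60 for LOC111716691. Just inside the limit lay LOC111708179 at 4.61 and LOC111706510 at 4.64, and just outside it lay LOC111701132 at 4.60, LOC111697131 at 4.60 and LOC111697698 at 4.59. The sex difference at 50 µg/L is therefore fixed by the choice and was not tested.

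The study asked how an insect growth regulator alters transcription in a crustacean that it does not target. TEB is an agonist of the ecdysone receptor. Adult copepods collected in the Seine estuary were kept for 72 h in water with acetone alone (the solvent control), or with the same acetone and a nominal 0.5 or 50 µg/L of TEB. Each library came from a pool of 30 whole adults of 1 sex, and each of the 6 groups (control, 0.5 and 50 µg/L, in females without eggs and in males) had 3 replicates. Because whole animals were pooled, fewer cells of a type and less RNA per cell cannot be told apart in any value given here.

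In arthropods, genes read mainly in females are for a large part genes of the ovary. The growing oocyte takes up yolk through receptors of the low-density lipoprotein receptor family and stores RNAs and proteins for the embryo. Those stored RNAs are kept silent and later switched on by RNA-binding proteins and by changes in the length of the poly(A) tail, and the oocyte also stores histones and cell cycle regulators. Gene names were at hand for genes in the study's own lists only, which were made from these libraries. Of the 200 members, 50 had a protein name, 56 were listed as uncharacterized and 94 had no entry, so most of the set cannot be described by function.

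The summed counts of a library ran from 7983412 to 17114866 in females and from 3882407 to 10468479 in males. Sequencing took place on High Output flow cells with 75 bp reads for the controls, for males at 0.5 µg/L and for female 0.5 µg/L replicates 1 and 2. Mid Output flow cells with 150 bp reads were used at 50 µg/L in both sexes and for female 0.5 µg/L replicate 3. A list of 4 markers of ovary and yolk (a vitellogenin-like, 2 vasa-like and an exuperantia-like gene), none of them a member and 3 of them among the genes set aside, summed to between 776 and 1145 CPM in the female libraries and to between 33.2 and 65.6 CPM in males at 50 µg/L. In male controls the sum ran from 79.4 to 489 CPM and in males at 0.5 µg/L from 50.8 to 315 CPM. The lowest value in each of these 2 groups was replicate 1. The vasa-like genes gave much of the sum (315 and 527 of 1109 CPM in female control 1). The paper describes vasa as expressed in gonads and rising during spermatogenesis, so it is not particular to the ovary. In male 0.5 µg/L replicates 2 and 3 the vitellogenin-like gene was at 6.29 and 6.70 CPM, beside 83.2 to 97.4 CPM in females. The vasa-like genes were there at 97.0 to 163.5 CPM, beside 198 to 575 CPM. A list of 5 muscle genes summed to between 193 and 445 CPM in males and to between 40.5 and 103 CPM in females. No name in the study's lists matched the planned words for sperm and testis.

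In the members, 4 of the 9 male libraries stood apart. The 200 genes together took 8.18 to 9.77% of all counts in the 9 female libraries. In the 3 male libraries at 50 µg/L they took 0.0514, 0.0522 and 0.0549%. Male control replicate 1 (0.0638%) and male 0.5 µg/L replicate 1 (0.0696%) were close to this, whereas male control replicates 2 and 3 reached 2.96 and 3.96%, and male 0.5 µg/L replicates 2 and 3 reached 1.94 and 1.95%. The male groups of controls and of 0.5 µg/L thus each held 1 library almost without the members and 2 libraries with many of their reads. Results on males are given with and without these 4 libraries, and that removal was chosen with the members' own levels known (for the 4 together, after seeing the data), so the values without them are a description and no independent evidence of a sex difference.

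**Figure D1:**
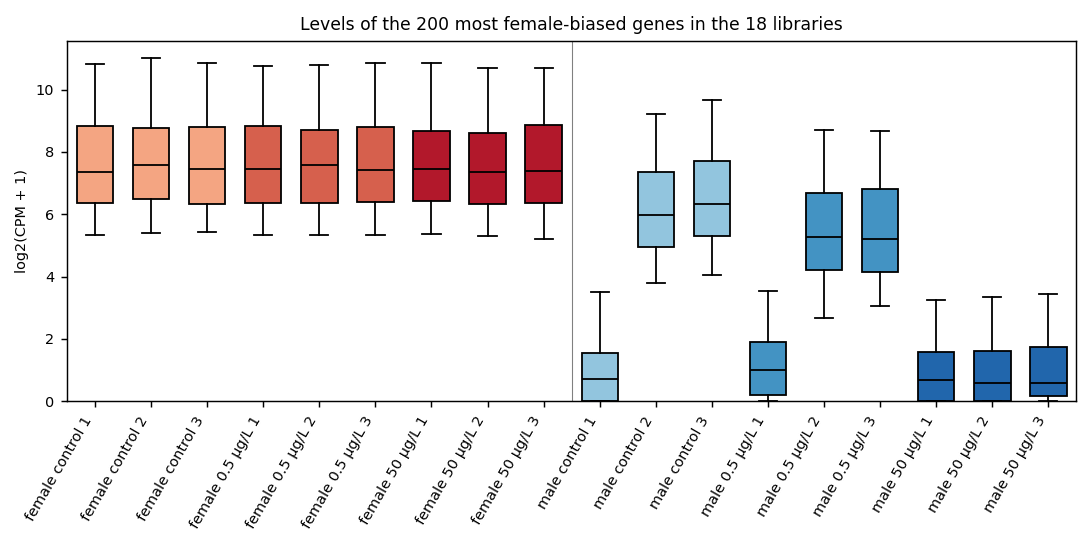
Levels of the 200 members in each of the 18 libraries, as log2 of CPM plus 1. Boxes span the quartiles with the median as a line, and whiskers reach the 5th and 95th percentiles. The 9 female boxes lie at the same height, male control 1, male 0.5 µg/L 1 and the 3 males at 50 µg/L lie near 0, and the other 4 male libraries lie between.

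Taken gene by gene, the level in these 4 male libraries was nearly the same share of the female level for most members. In male control 2 the median member stood at 33.6% of the mean of the control females (quartiles 29.9 and 38.2%), and in male control 3 at 45.9% (41.1 and 50.9%). In male 0.5 µg/L replicates 2 and 3 the medians were 22.8% (19.3 and 26.9%) and 22.7% (19.4 and 26.2%) of the mean of the females at 0.5 µg/L. Within a factor of 1.5 of the median of the library lay 184, 184, 170 and 167 of the 200 members in these 4 libraries. In male control 1 the median was 0.291% with 57 members at 0 counts, and in male 0.5 µg/L replicate 1 it was 0.395% with 43 at 0. The 3 males at 50 µg/L had medians of 0.255, 0.223 and 0.308%, as the choice of members requires. The 200 genes chosen by the same rule with the sexes exchanged moved the other way in the 4 libraries. Their median member stood at 59.4 and 49.4% of male control 1 in male controls 2 and 3, and at 66.2 and 64.2% of male 0.5 µg/L replicate 1 in the other replicates, 2 and 3. What set the 4 libraries apart was not tested.

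**Figure D2:**
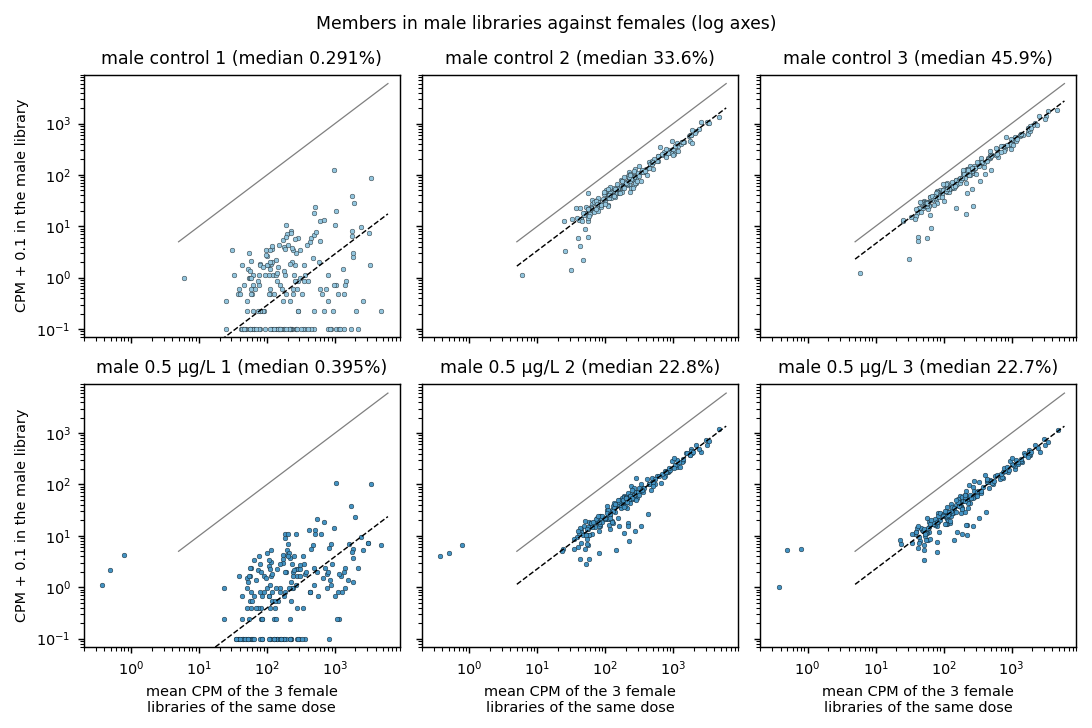
Level of each member in 6 male libraries (CPM plus 0.1) against the mean of the 3 female libraries of the same dose, on log axes. The grey line marks equal levels and the dashed line the median share of the library. Points follow the dashed line in replicates 2 and 3 at 33.6, 45.9, 22.8 and 22.7%, and scatter at or near 0 in replicate 1.

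Among control females, the mean levels of the members ranged from 5.98 to 4722 CPM. The median of the group means was 182.5 CPM (quartiles 84.2 and 456), 45 members were at 500 CPM or more and 26 at 1000 or more. The 10 most abundant members held between 30.9 and 31.8% of the members' counts in every female library. Levels differed little between doses in females, with medians of 181 CPM at 0.5 µg/L and 170 CPM at 50 µg/L. The order of the members by level was also alike across doses, with Spearman correlations of 0.986 to 0.996 between group means over 197 members. These points share genes and annotation, and the correlation is a description.

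The most abundant member was LOC111697165, which has no known function. It was at 4232, 4993 and 4941 CPM in the control females, 4516, 4814 and 4925 CPM at 0.5 µg/L and 5256, 4776 and 4775 CPM at 50 µg/L. In male replicates 1, 2 and 3 it was at 0.126, 1362 and 1856 CPM in controls, 6.62, 1222 and 1151 CPM at 0.5 µg/L and 1.99, 0 and 0.733 CPM at 50 µg/L. No male library reached the lowest female library, and the 4 high male libraries lay between 1151 and 1856 CPM. The uncharacterized LOC111712488 and LOC111706064 followed the same pattern at 2543 to 3947 and 2103 to 3070 CPM in control females. Among the highest ranked members, only a prisilkin-39-like gene, at rank 8, had a protein name.

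Several named members bind or control RNA. The second most abundant member in control females was the gene of an LSM14 homolog B-like protein (LOC111708771). LSM14 proteins bind mRNA in cytoplasmic granules and hold back its translation, as in oocytes of *Xenopus*. The gene was at 3236, 3673 and 3280 CPM in control females and at 88.4, 1043 and 1737 CPM in control males. All 3 female libraries exceeded all 3 male libraries, yet male controls 2 and 3 were well above male control 1. In males at 50 µg/L the gene remained at 118, 103 and 106 CPM, the highest level of any member in that group.

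The cytoplasmic polyadenylation element-binding protein 1-like gene (CPEB1-like, LOC111696463) encodes a protein that regulates stored oocyte mRNAs through their poly(A) tails in *Xenopus*. It was at 290, 263 and 247 CPM in control females and at 2.91, 122 and 128 CPM in control males. At 0.5 µg/L it was at 303, 252 and 296 CPM in females and at 2.16, 69.9 and 73.8 CPM in males. A poly(A) polymerase beta-like gene (LOC111703579), whose product adds such tails, was at 1042, 1108 and 1003 CPM in control females and 19.3, 363 and 387 CPM in control males. For both genes the sexes did not overlap in controls or at 0.5 µg/L, and male replicates 2 and 3 again sat well above replicate 1.

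The bicaudal C homolog 1-A-like gene (LOC111698166) belongs to a family of RNA-binding proteins needed for oogenesis in *Drosophila*. It was at 695, 660 and 718 CPM in control females and at 13.2, 259 and 370 CPM in control males. A cold shock domain gene similar to CG9705 of *Drosophila* (LOC111698465), from a family that binds single-stranded RNA, was at 107, 156 and 114 CPM in control females and between 0.379 and 53.9 CPM in control males. A DHX8-like helicase of the spliceosome (LOC111698991) was at 209, 249 and 227 CPM and at 7.33, 97.7 and 124 CPM. None of these 3 overlapped between the sexes. An RPB1-like gene, for the largest subunit of RNA polymerase II (LOC111704374), had a mean of 486 ± 91.0 CPM (SD, n = 3) in control females.

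Among cell cycle genes, 2 members encode B-type cyclins, which activate the kinase that drives entry into division and the final steps of oocyte maturation. The cyclin-B2-like gene (LOC111706711) was at 87.8 to 111 CPM in control females and at 2.53, 46.0 and 51.3 CPM in control males. The cyclin-B-like gene (LOC111702910) was at 122, 166 and 140 CPM and at 1.52, 52.3 and 54.4 CPM. Both were higher in every female than in every male control library. Linker histone H1 compacts chromatin, and the late histone H1-like gene (LOC111703046) was at 1478, 2088 and 1845 CPM in control females and at 38.2, 591 and 786 CPM in control males. The H2A variant-like gene (histone H2A.v2-like, LOC111708142) was at 355, 367 and 336 CPM and at 0.759, 118 and 210 CPM. Reads of near-identical histone or cyclin copies may be split between genes, and the treatment of reads with several matches was not stated in what was read for this work.

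Receptors that take up lipoproteins formed the next group. In insects and egg-laying vertebrates, the receptor that brings yolk precursors into the oocyte is a relative of the very low-density lipoprotein receptor. The very low-density lipoprotein receptor-like gene (LOC111702980) was steady in control females at 980, 972 and 985 CPM. In control males it was at 0.632, 321 and 403 CPM, and in males at 50 µg/L at 2.79, 5.15 and 2.81 CPM. A receptor-related protein 2-like gene (LOC111702101) and a receptor-related protein 1-like gene (LOC111712641), both large endocytic receptors of this family, had means of 581 ± 118 and 95.4 ± 12.9 CPM (SD, n = 3) in control females. In male control 1 they were at 1.90 and 3.29 CPM, in male control 2 at 188 and 46.1 CPM, and in male control 3 at 247 and 41.9 CPM.

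Another 3 members act on lipids. The phospholipase B1-like gene (LOC111706278) was at 747, 907 and 867 CPM in control females and at 0, 266 and 535 CPM in control males. The long-chain fatty acid CoA ligase 4-like gene (LOC111712570), which activates fatty acids for lipid synthesis, was at 525, 522 and 469 CPM and at 23.9, 176 and 235 CPM. The phospholipase A2-like gene (LOC111706511) was lower, at 50.4, 42.5 and 46.3 CPM, and in control males at 0.632, 2.10 and 18.6 CPM. It was the only one of the 3 whose share of the female level in male control 2 lay far below that of the library as a whole (4.53% against 33.6%).

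**Figure D3:**
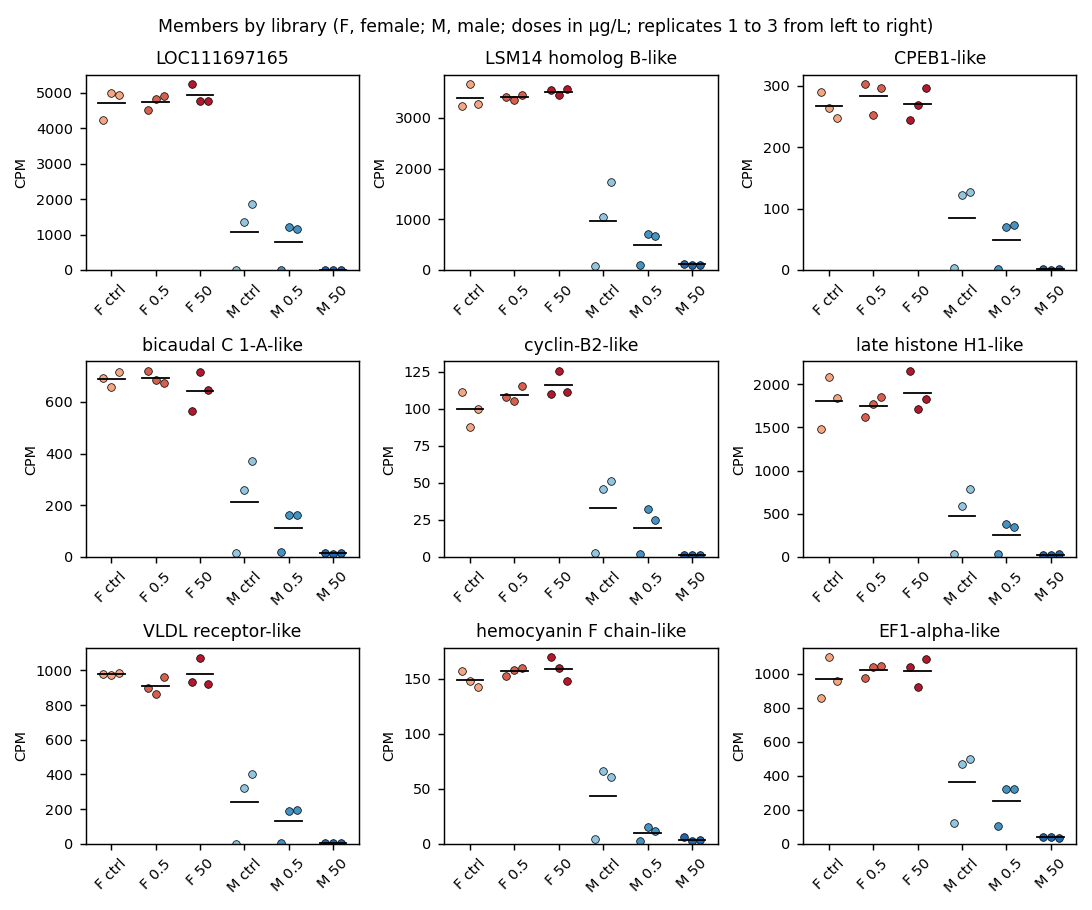
CPM of 9 members in each library, with replicates 1 to 3 from left to right in each group and the group mean as a bar. In every panel the 9 female libraries lie above the 9 male libraries, and replicates 2 and 3 of male controls and of males at 0.5 µg/L lie above replicate 1.

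A further 5 members fell under transporters and channels by name. They were a glycine transporter 2-like (LOC111697904), an ammonium transporter 1-like (LOC111696322), a dopamine transporter-like (LOC111697080), a sodium/hydrogen exchanger 9B2-like (LOC111709501) and an ABC transporter F family member 4-like gene (LOC111702703). The F family of ABC proteins has no membrane domain and acts in translation. Their means in control females ran from 73.2 to 228 CPM. The dopamine transporter-like gene was at 175, 181 and 175 CPM in control females and 3.92, 74.6 and 70.6 CPM in control males.

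Secreted, matrix-like and repeat-rich proteins were also among the members. The prisilkin-39-like gene (LOC111699757), named after a shell matrix protein of oysters, was at 1881, 2272 and 2025 CPM in control females and at 0.126, 652 and 955 CPM in control males. A leucine-rich repeat extensin-like gene (LOC111707968) was at 2578, 3753 and 3060 CPM and at 7.21, 1052 and 1249 CPM. An adhesive plaque matrix protein-like gene (LOC111713878) and a FLO11-like gene (LOC111701063) had control female means of 602 ± 113 and 445 ± 51.1 CPM (SD, n = 3). A pair of peroxidasin-like genes, of a family of peroxidases that cross-link extracellular matrix, were lower at means of 75.9 ± 4.05 (LOC111698597) and 55.0 ± 12.6 CPM (LOC111700090). An axoneme-associated mst101(2)-like gene (LOC111695653), named after a sperm tail protein of *Drosophila*, was at 2419, 2322 and 2489 CPM in control females and 9.48, 778 and 954 CPM in control males, so here its reads were higher in females.

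Chaperones and regulators formed a further group of named members. Not every named member is described here, a zyxin-like (LOC111699240) and a peste-like gene (LOC111700844) being among those left out. An FK506-binding protein 4-like gene (LOC111705671), a co-chaperone that isomerizes proline bonds, was at 1806, 2053 and 1877 CPM in control females and at 28.1, 751 and 813 CPM in control males. A dnaJ 49-like co-chaperone gene (LOC111706182) was at 977, 1480 and 1103 CPM and at 0, 288 and 511 CPM. A heat shock 70 kDa protein-like gene (LOC111711631) had a control female mean of 258 ± 61.9 CPM (SD, n = 3). The hunchback-like gene (LOC111711641), of a zinc finger factor that is supplied by the mother in *Drosophila*, was at 131, 129 and 141 CPM in control females and at 1.01, 39.2 and 56.1 CPM in control males. A tramtrack-like repressor gene (LOC111707821) had a mean of 112 ± 7.05 CPM in control females and was the 196th of the 200 members by rank.

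The sex difference was tested in the control and 0.5 µg/L libraries, which the choice of members did not use. A gene counted as called if edgeR's quasi-likelihood test gave a p, adjusted after Benjamini and Hochberg, of 0.05 or less and a log2 difference of at least 1. Adjustment was over all 17880 genes of the fit. In controls all 200 members had a positive fitted difference, with a median log2 of 1.80 (quartiles 1.65 and 1.92) beside a median of -0.24 over all genes tested. All 3 female libraries exceeded all 3 male libraries in 192 of the 200 members, beside 34.7% of all genes, and were exceeded by them in 0 (35.1% of all genes). Only 4 members were called higher in females, or 2% of them, beside 10.4% of all genes. Unadjusted p was under 0.05 for 12 members, beside 11705 of all 17880 genes. Leaving out single libraries gave from 1 call (without female control 1) to 27 (without male 0.5 µg/L replicate 1). The median coefficient of variation of a member was 88.4% in male controls and 13.8% in female controls.

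The 4 called members had standard errors of 0.74 or less. The elongation factor 1-alpha-like gene (LOC111697183), which brings aminoacyl-tRNA to the ribosome, was at 856, 1098 and 957 CPM in control females and at 125, 468 and 500 CPM in control males. Its log2 difference was 1.28 ± 0.44 (SE), with an adjusted p of 0.0258 in edgeR's quasi-likelihood test. The uncharacterized LOC111715309 was at 107, 89.5 and 105 CPM in control females and at 1.64, 30.2 and 31.2 CPM in control males, a log2 difference of 2.13 ± 0.74 (adjusted p 0.0299, edgeR). The uncharacterized LOC111711918 (1.81 ± 0.69, adjusted p 0.0439, edgeR) and the glycine transporter 2-like gene LOC111697904 (1.88 ± 0.74, adjusted p 0.0484, edgeR) were the others. By comparison, LOC111697165, with the highest ranking value, had a log2 difference of 2.04 ± 1.92 and an adjusted p of 0.367 in edgeR's test.

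Without male control replicates 2 and 3, 194 members were called in controls (24.5% of all genes), and without all 4 libraries 197 were called (27.1% of all genes). The male control group is then 1 library, which was assumed to vary like the other groups. Against male control 1 alone, the mean of the control females was a median of 7.45 log2 units higher when the 90 members with 3 counts or fewer there were set to 3 counts, so that this median is a lower limit. With all libraries, the 8 members whose sexes overlapped in controls were LOC111715108, LOC111717910, LOC111698154, LOC111714244, LOC111705030, LOC111712637, LOC111710718 and LOC111716691. For LOC111717910 this came from male control 2 alone (45.2 CPM beside 0 and 5.94), against 65.2, 61.2 and 42.8 CPM in the females.

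At 0.5 µg/L, 48 members were called higher in females by edgeR's quasi-likelihood test, beside 20.7% of all genes. The median log2 difference was 2.48 (quartiles 2.30 and 2.68), with -0.47 over all genes tested. The females exceeded the males without overlap in 197 members (40.7% of all genes). For LOC111705030 and LOC111710718 all 3 males exceeded all 3 females (42.8% of all genes). The lowest adjusted p, 0.00113 in edgeR's test, was that of LOC111715309, at 77.0, 97.1 and 64.5 CPM in females and 0.720, 4.44 and 4.73 CPM in males. The named member with the lowest adjusted p (0.00254, edgeR) was the hemocyanin F chain-like gene LOC111713766, with a log2 difference of 3.77 ± 0.82. Hemocyanins are a family of copper proteins that carry oxygen. Another member of the same name, LOC111698228, was among the members with the smallest log2 difference at this dose. Named calls also included the genes of LSM14 homolog B-like (2.58 ± 0.91), the CoA ligase 4-like (2.41 ± 0.75), late histone H1-like (2.58 ± 0.99) and both peroxidasin-like proteins (2.91 ± 0.93 and 2.34 ± 0.66). Leaving out single libraries gave from 21 calls (without female 0.5 µg/L replicate 2) to 139 (without male control 1). Of the fits on fewer males, the one lacking male controls 2 and 3 called 123 members (21.7% of all genes), and the one lacking all 4 libraries in 197 (28.7%).

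When the ranking was repeated in other libraries, 135 members were among the 200 most female-biased genes of the controls and 145 among those of the 0.5 µg/L libraries. With male replicates 2 and 3 of the group left out, the number was 175 in both.

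Named groups of the study's lists were also counted, as a setting for the members. These lists were drawn up from the same samples, mostly from males at 50 µg/L, and are no independent evidence of direction. Of 15 genes of yolk, lipoprotein and lipid handling, 6 were members. At 0.5 µg/L 5 of the 15 were called higher in females and 5 lower, the receptor-related protein 1-like and CoA ligase 4-like members being among the former. Of 9 genes of germline RNA regulation 3 were members, and 4 of the 9 were called higher and 2 lower at 0.5 µg/L, none of them a member. Of 36 genes of meiosis and the cell cycle 2 were members, with 26 called higher and 7 lower. Of 32 genes of histones and chromatin 2 were members, with 27 called higher and 2 lower. All 25 genes of DNA replication and repair were outside the members, and 24 of them were called higher in females at 0.5 µg/L. The list of 79 zinc finger and transcription factor genes was matched by words in the names and holds no member, although the hunchback-like and tramtrack-like members, which it missed, are such factors. Of the 79, 64 were called higher and 5 lower at 0.5 µg/L. Of 36 kinases and phosphatases, none a member, 23 were called higher and 11 lower. Of 33 genes of RNA binding, splicing and translation 3 were members, with 26 called higher and 0 lower. Of 30 genes of ubiquitin and proteasome 1 was a member, with 18 called higher and 7 lower. The remaining lists held more genes called lower than higher in females. Of 63 transporters and channels tested, 22 were higher and 36 lower. The numbers were 9 and 16 of 28 egg envelope, mucin, chitin-binding and cuticle genes, and 5 and 11 of 18 proteases and inhibitors. These last lists held 5, 0 and 0 members. The 10 genes set aside before the ranking could not become members. Among them were vitellogenin-like, vasa-like, exuperantia-like and mucin-like genes, so low member counts of such lists may in part reflect that choice. Over all 17880 genes tested, 3710 were called higher (20.7%) and 7186 lower.

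The 0.5 µg/L exposure was compared with controls within each sex, on libraries that the choice of members did not use. In females, 0 members were called by edgeR's quasi-likelihood test, DESeq2 or edgeR's likelihood ratio test. Of all 15555 genes tested these called 0, 0.045 and 0.0321% lower, and none higher. The median log2 change was -0.03 (quartiles -0.11 and 0.05), beside 0.01 over all genes. At an unadjusted p under 0.05 stood 2 members, beside 468 of all 15555 genes. They were the uncharacterized LOC111695481 and LOC111701465. The LOC111695481 level was 460, 591 and 509 CPM in control females and 457, 417 and 352 CPM at 0.5 µg/L, a log2 change of -0.34 ± 0.12 with an adjusted p of 1.00 in edgeR. The 352 CPM of LOC111695481 was replicate 3, the 0.5 µg/L female library read on the Mid Output flow cell. In this member all 4 Mid Output female libraries lay below all 5 High Output libraries. For LOC111701465 the values were 50.2, 71.2 and 47.4 CPM in control females and 43.1, 31.6 and 47.0 CPM at 0.5 µg/L. Libraries did not overlap for 1 member above controls (3.23% of all genes) and 7 below (4.81%). The one above was LOC111713294, at 51.6, 51.3 and 49.9 CPM in controls and 55.8, 56.7 and 55.9 CPM at 0.5 µg/L.

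In males at 0.5 µg/L, 0 of the 199 members tested were called against controls by edgeR's quasi-likelihood test, DESeq2 or edgeR's likelihood ratio test. Of 17492 genes these called 0, 0.0114 and 0.0286% higher and 0, 0.00572 and 0.0114% lower. The median log2 change was -0.78 (quartiles -0.94 and -0.55), beside 0.00 over all genes. No member was without overlap between the groups (6.01% of all genes above and 2.61% below), as replicate 1 was low and replicates 2 and 3 were high in both. An unadjusted p under 0.05 was found for 3 members, beside 693 of all 17492 genes. They were LOC111715309 (-2.56 ± 0.82), LOC111718482 (-2.63 ± 1.04) and the hemocyanin F chain-like LOC111713766 (-2.03 ± 0.85), each with an adjusted p of 0.942 in edgeR. With the replicate number as a block, although pairing by that number is not settled, 34 members had an unadjusted p under 0.05 and 0 were called. Of all 17492 genes, 1136 had such a p with the block. The difference between the sexes in the effect of 0.5 µg/L had a median log2 of 0.73 over the members and 0 called members by any of the 3 tests, which called 0, 0.00559 and 0.0336% of all genes higher and 0, 0.168 and 0.196% lower. Unadjusted, 2 members were under 0.05 there, LOC111705030 and LOC111710718, beside 956 of all 17880 genes. Without the 4 male libraries 0 members were called in males, of 111 that then passed the filter on low counts (0.0168% of all genes in each direction).

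The 3 members with an unadjusted p under 0.05 in males without the block belonged to a wider set in which the common share of the female level was not kept. In both male 0.5 µg/L replicates 2 and 3, 12 members stood at under 50% of the median share of the library. The gene LOC111700136 was at 307, 252 and 265 CPM in females at 0.5 µg/L and at 0, 12.5 and 15.5 CPM in the males, which is 4.54 and 5.64% of the female mean in replicates 2 and 3. In male controls 2 and 3 the same gene was at 77.4 and 77.0 CPM, or 22.8 and 22.7%. For LOC111713766 the shares were 44.2 and 40.4% in male controls 2 and 3, and 9.67 and 7.51% in the 0.5 µg/L replicates.

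The others were LOC111705506, LOC111700137, LOC111694749, LOC111718440, LOC111701427, LOC111706580, LOC111695660, LOC111712600, LOC111715309 and LOC111718482. Of the 12, 5 were also under 50% of the median in male control 3 and 0 in male control 2. In 9 of them female control 2 was the lowest of the control females, beside 46 of all 200 members. The set was picked for its low values and was not tested. Over all 200 members the shares in male 0.5 µg/L replicates 2 and 3 had a Spearman correlation of 0.686, and no other pair among the 4 libraries exceeded 0.139. As these shares divide by the same female means and the libraries share a dose group, the correlation is a description.

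**Figure D4:**
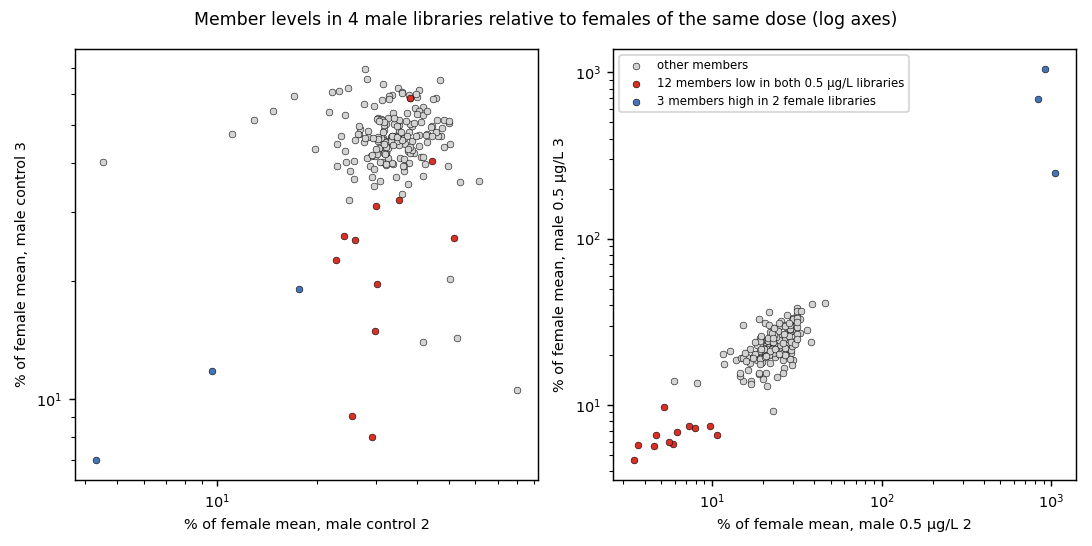
Level of each member as a percentage of the female mean of the same dose, male control 3 against 2 (left) and male 0.5 µg/L 3 against 2 (right), on log axes. The 12 members in red lie below the main cloud in the right panel, and the 3 members in blue, whose reads come mainly from 2 female libraries, lie far outside it.

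A small number of members rest on single female libraries. The genes LOC111705030, LOC111710718 and LOC111714244 were at 373, 271 and 216 CPM in female 50 µg/L replicate 1 and at 0.203, 0.509 and 0.102 CPM in replicate 2. In female control replicate 1 they were at 90.7, 125 and 17.6 CPM, and the other 7 female libraries held at most 2.20 CPM of any of them. Male libraries held 0 to 6.53 CPM. Their excess in females at 50 µg/L came from 1 library, and at 0.5 µg/L their means were not higher in females.

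Over the whole table, 34 genes were at least 10 times higher in those 2 female libraries than in the other 7, and 9 of them had a mean of at least 20 CPM in females at 50 µg/L. None of the 34 had an entry in the study's lists. They summed to 0.206% of the counts in female 50 µg/L replicate 1 and 0.0857% in female control replicate 1, and to at most 0.00224% in the other female libraries. When female 50 µg/L replicate 1 was left out of the rule, 196 members were kept. The other 197 members had a higher mean in females than in males at every dose.

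Reads that remained in the 5 male libraries with few of the members were unevenly spread over genes. In male control 1 and male 0.5 µg/L replicate 1 together, 25 members had 0 counts, and 10 had 0 counts in all 5 libraries. At 3 counts as the limit of detection, the floor was 0.379 CPM in male control 1 and 0.432 CPM in male 0.5 µg/L replicate 1, for counting error only. In contrast, 33 members exceeded 2% of the female level in male control 1, and 20 did so in both libraries.

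Among the members not tied to single female libraries, the elongation factor 1-alpha-like gene stood highest at 12.9 and 10.4% of the female mean in these 2 libraries. It was at 42.4, 38.1 and 36.4 CPM in males at 50 µg/L, below the 125 and 106 CPM of male control 1 and male 0.5 µg/L replicate 1. In male control 1 the next were a venom allergen 3-like gene (LOC111694878) at 5.44 and 5.14%, a peroxidasin-like gene (LOC111700090) at 5.29 and 4.12% and the CoA ligase 4-like gene at 4.73 and 3.82%. The LSM14-like gene was at 88.4 and 101 CPM, or 2.60 and 2.98%. Shares in the 2 libraries had a Spearman correlation of 0.598 over the 200 members.

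The values at 50 µg/L against controls are given as a description, since the choice of members used the former. In females the median log2 difference was 0.04 (quartiles -0.12 and 0.13). The 3 exposed libraries lay above all controls in 6 members (5.11% of all genes) and below them in 32 (11.2% of all genes). These shares can be read with the flow cell, because the 4 female Mid Output libraries comprise the 3 at 50 µg/L and 1 at 0.5 µg/L. All 4 lay below all 5 High Output libraries in 27 members (5.52% of all genes) and above in 3 (2.46%). The 27 are among the 32, and the 3 among the 6, by construction. The Mid Output libraries include all those at 50 µg/L, and the High Output libraries include all controls. Exposure to 50 µg/L and the flow cell with its read length cannot be told apart in these members.

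The uncharacterized LOC111716202 was at 125, 167 and 168 CPM in control females, 141, 165 and 70.5 CPM at 0.5 µg/L and 85.8, 58.2 and 62.3 CPM at 50 µg/L. Its low value at 0.5 µg/L was replicate 3, from the Mid Output flow cell. LOC111710805 followed the same pattern, with 182 to 259 CPM in the 5 High Output libraries and 107 to 124 CPM in the 4 Mid Output libraries. The ABC transporter F family member 4-like gene was at 83.5 to 102 CPM and 48.7 to 65.4 CPM. In the opposite direction, the SINA-like 5 gene (LOC111696906), for a ubiquitin ligase, was at 544 to 697 CPM in the High Output and 699 to 891 CPM in the Mid Output libraries. Members lower at 50 µg/L without this split included LOC111701465, at 25.6, 26.2 and 32.4 CPM beside 50.2, 71.2 and 47.4 CPM in controls.

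**Figure D5:**
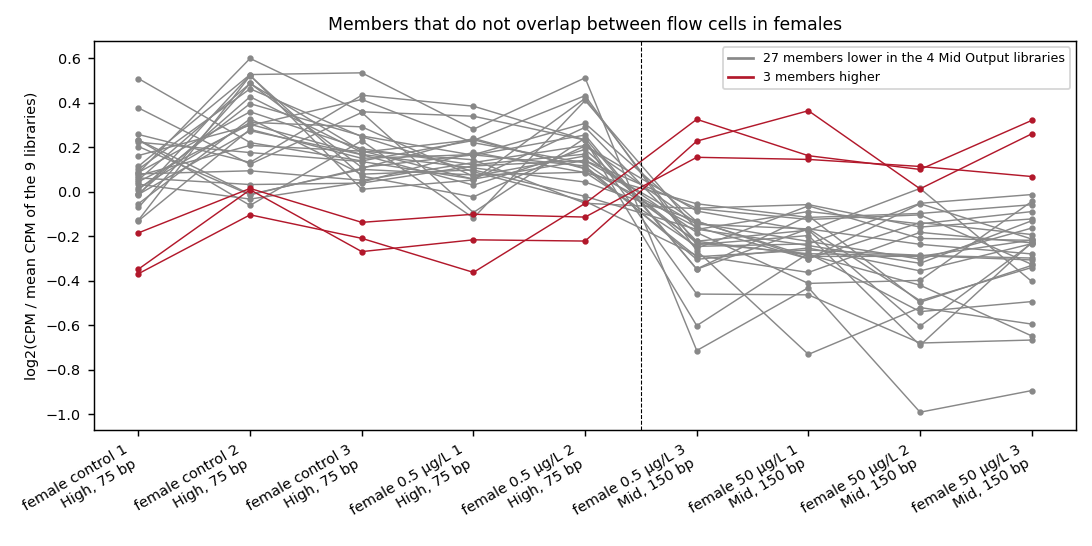
Level of 30 members in the 9 female libraries as log2 of CPM over the mean of the 9, ordered by flow cell. The 30 members were picked because all 4 Mid Output libraries lie below (27, grey) or above (3, red) all 5 High Output libraries. That the 0.5 µg/L library read on the Mid Output flow cell lies with the 50 µg/L libraries follows from this choice.

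Female control libraries also differed among themselves in a subset of the members. Across the 3 control females the median coefficient of variation was 13.8%, against 8.50% at 0.5 µg/L and 9.82% at 50 µg/L. It exceeded 30% in 15 members outside the 3 genes carried by single libraries, and 10 of these 15 were lowest in female control 2. LOC111700136 varied most, at 552, 139 and 327 CPM, and LOC111705506 was at 678, 280 and 531 CPM. By contrast 135 of the 200 members were highest in female control 2, and the median member there was 110.3% of the group mean. The venom allergen 3-like gene was one of these, at 137, 257 and 178 CPM.

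In males the median fitted log2 difference between 50 µg/L and control was -6.26. A separate median, of log2 ratios of plain group mean CPM, was -6.36. For that one, 22 members at 0 in all 3 exposed libraries were set to 3 counts over the group. All 3 exposed males lay below all 3 controls in 52 of the 199 members tested (11.8% of all genes) and above them in 0 (13.9% of all genes). The fitted median rested on male controls 2 and 3. Without these 2 libraries the median was 0, with male control 1 as the only control. For the very low-density lipoprotein receptor-like gene, male control 1 was at 0.632 CPM and the exposed males at 2.79, 5.15 and 2.81 CPM, whereas male controls 2 and 3 were at 321 and 403 CPM. The prisilkin-39-like gene was at 0.126 CPM in male control 1 and at 0, 1.29 and 0 CPM in exposed males. For the receptor gene the direction of the difference in males was thus not the same against male control 1 as against the other controls. Mid Output flow cells were used for all males at 50 µg/L and High Output flow cells for all male controls. Exposure to 50 µg/L and the flow cell with its read length therefore cannot be told apart in males.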

How the data were processed

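RNA-seq counts of 23728 genes in 18 libraries were analysed as deposited. The authors made the counts with featureCounts from STAR alignments to the assembly Eaff_2.0, after Trimmomatic had trimmed adapters, kept a Phred score above 30 and dropped any read shorter than 36 bp. Their versions and the counting of multi-mapped reads are not given in the sources used here. Every deposited column matched a sample (0 without one). CPM was computed from the sum of each column.

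The members and all lists were chosen with earlier results of these data known. Genes named were taken from the 12 highest ranked members, the 8 most abundant in control females, up to 4 members of each of 12 functional classes, the largest non-overlapping changes at 0.5 µg/L and changes at 50 µg/L, the members with the smallest sex difference, and 5 genes on each side of the limit of the rule. Other members were named for their protein name, for being called, or after their values were seen. Neighbours on a scaffold and protein pairs were part of the planned rule and were not analysed here. Names came from the supplementary gene lists of the study, mostly lists for males at 50 µg/L that were chosen on these samples.

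Differences were fitted on all genes passing filterByExpr with TMM factors and the quasi-likelihood test of edgeR 4.0.16 in R 4.3.3, with Benjamini-Hochberg adjustment. The sex fit used the 12 control and 0.5 µg/L libraries and the dose fits the 9 libraries of a sex. Alternatives were DESeq2 1.42.0, RLE factors, library size alone, no filter, a likelihood ratio test, a replicate block and left-out libraries. Tables and figures were made with Python 3.11.15, pandas 2.3.3, numpy 2.4.6, scipy 1.17.1 and matplotlib 3.10.9. The fits were tested on data simulated with the same spread in every group. That setting does not cover the uneven male control and 0.5 µg/L groups. No pair of replicates was alike within sampling noise (chi-square per degree of freedom at least 4.36). Replicates were separate pools of animals from 1 field population, so p-values cover the spread between such pools only.

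Deviations from group means of libraries with the same replicate number correlated at 0.72, 0.39 and 0.50 in males between control and 0.5 µg/L. Male 0.5 µg/L replicate 2 correlated better with male control 3 (0.46) than with male control 2 (0.39). Not every male library thus correlated best with its own number, and replicate 1 was low in both groups. These values do not settle whether the numbers pair the samples. With the replicate number as a block, 0 members were called there too. CPM intervals and floors cover counting error only.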

Additional observations from a re-analysis of the deposited data

How the results depend on the processing

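The count of members called higher in females depended on the processing more than any other result. In controls it was 4 with the settings reported, 18 with DESeq2 (16.3% of all genes), 13 with the likelihood ratio test (11.9%), 8 with RLE factors (15.1%), 8 with library size alone (15.7%), 2 with no filter on low counts (8.87%) and 21 with all 18 libraries in one fit (11.6%). It was 194 without male controls 2 and 3 (24.5%) and 197 without the 4 male libraries (27.1%). Without 1 library at a time it ran from 1 to 27, with 1 or 2 calls without female control 1 or 2, any female 0.5 µg/L replicate or male 0.5 µg/L replicates 2 or 3, 9 without male control 1 or 3, and 27 without male 0.5 µg/L replicate 1. At 0.5 µg/L it was 48 as reported, 95 with DESeq2 (25.4% of all genes), 77 with the likelihood ratio test (21.6%), 98 with all 18 libraries (20.7%), 123 without male controls 2 and 3 (21.7%) and 197 without the 4 male libraries (28.7%). Without 1 library at a time it ran from 21 to 139, with 21 to 29 calls without any female or male 0.5 µg/L replicate and 139 without male control 1. The cause was not tested.

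The median log2 sex difference over the members was 8.08 in controls without male controls 2 and 3, 8.15 without the 4 male libraries and 7.81 at 0.5 µg/L without the 4, and without 1 library at a time it ran from 1.23 to 2.37 and from 1.93 to 2.88. These fitted medians include male groups near 0 and depend on the prior count. The median over all genes tested moved from -0.24 in controls with TMM to -0.14 with RLE factors and -0.06 with library size alone, and 200 members stayed positive in each. For males at 50 µg/L against control the median was 0 and -0.00196 without the 2 and the 4 libraries, and -6.80 to -5.59 without 1 library. In females it ran from -0.03 to 0.13. With TMM-scaled CPM the median shares of the 3 males at 50 µg/L were 0.313, 0.270 and 0.362%. Shared members of the rankings ran from 99 to 141 in controls and from 117 to 151 at 0.5 µg/L without 1 library. The 3 comparisons with 0 calls at 0.5 µg/L stayed at 0 to 0 without 1 library.

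With the replicate block the calls between the sexes were 17 in controls (13.3% of all genes, median 2.42) and 69 at 0.5 µg/L (22% of all genes, median 3.13). The 3 comparisons with 0 calls at 0.5 µg/L stayed at 0. For males at 50 µg/L against control, which the choice of members used, no calls are given. As a description, the median log2 difference there was -6.12 with the block and -6.26 without it. Between the sexes the numbers share no stated origin, same-number correlations were 0.17, 0.32 and -0.0008 in controls, and not every library correlated best with its own number. The depth of the 5 male libraries with few member reads limits values under about 3 counts.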
